A study of Mus musculus with 20 samples.

Results

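The ionotropic and metabotropic receptors for glutamate, together with the auxiliary proteins that travel with them, are described here at the level of their RNA in the mouse hippocampus. The set was taken from a list of 32 genes, and a gene belonged to it when it had at least 10 counts in at least 5 libraries. All 32 genes met this, out of 47729 gene identifiers in the count table, and all 32 were among the 16692 genes that were tested. They comprise 4 AMPA receptor subunits, 6 NMDA receptor subunits, 5 kainate receptor subunits, 1 delta receptor, 6 metabotropic receptors and 10 auxiliary subunits.

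The RNA came from male C57BL/6 mice of 5 or 24 months housed under standard conditions (SC) or with enrichment (EE, an enriched environment), giving the groups 5mSC, 5mEE, 24mSC and 24mEE with 5 libraries each. The labels name no treatment other than the housing, and no transgene or mutation. According to the study's methods, the old enriched mice moved into the enriched cages late in life, and these cages held running wheels, platforms and tunnels, so that exercise, space and novelty came together. The young enriched mice are not described there. The methods state that mice were kept in groups, and the labels do not say which animals shared a cage, so the p values measure only the spread between the libraries of a group.

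Glutamate is the main excitatory transmitter of the hippocampus. AMPA receptors are assemblies of the subunits encoded by Gria1 to Gria4 and carry the fast synaptic current, while NMDA receptors pair the obligatory subunit encoded by Grin1 with subunits of the GluN2 or GluN3 kind and admit calcium when the membrane is already depolarised. Kainate receptors act on both sides of the synapse, metabotropic receptors signal through G proteins, and the auxiliary subunits (the TARPs of the Cacng family, the cornichons Cnih2 and Cnih3, Neto1, Neto2 and Shisa9) set the trafficking and gating of the channels. Hippocampal neurons are known for long-term changes in synaptic strength that depend on these receptors.

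The libraries held 11 to 34.1 M counts (M stands for mega), and the lowest count of any member in any library was 47, for Grm4. The library 5mSC replicate 3 stood apart, since mitochondrial ribosomal RNA took 26.8% of its counts against 0.883 to 1.82% in the other libraries. The 32 members together held 0.371% of its counts and 0.514 to 0.676% elsewhere, and 18 of the 32 had their lowest level of all 20 libraries there, while 4 had their highest. A further 7 members were lowest in 5mSC replicate 1, where mitochondrial ribosomal RNA took 1.44% and the members 0.544% of counts, within the range elsewhere. Its median correlation with the other libraries was 0.978, against 0.926 for replicate 3 and 0.986 to 0.990 for the rest. The biological coefficient of variation of all genes was 17.4% with all 20 libraries and 9.88% without 5mSC replicates 1 and 3, so values that rest on 5mSC are also given without them. As both were left out together, the fall cannot be assigned to either library. In replicate 3, general neuron markers had a mean log2 CPM of 8.41 (9.03 to 9.33 in the other libraries) and choroid plexus markers 3.11 (1.73 or less), and their part in the values against 5mSC was not tested. Markers of dentate gyrus granule cells, CA1, CA2 and CA3 were present in every library, but so were those of neocortex and striatum, so their presence does not tell how much neighbouring tissue the samples held.

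Compared as FPKM (counts per kilobase of exon and per M counts of the library), Cnih2 was the most abundant member at 273 ± 53.3 (mean ± SD over all 20 libraries). Gria1 followed at 188 ± 31 FPKM, above Gria2 at 69.4 ± 6.97 and Grik5, a subunit of high-affinity kainate receptors, at 48.1 ± 5.18. These 4 leading means lay further apart than their spreads. The order depends on the length used, which is that of all annotated exons merged, from 1369 bases for Cnih2 to 24842 for Grin2b. The next group was closer together, with Grm5 at 33.6 ± 3.25, the shared NMDA subunit Grin1 at 32.1 ± 4.58, Gria3 at 26.7 ± 2.88, Cnih3 at 24.5 ± 3.96, Grin2b at 23.8 ± 5.21, Cacng3 at 22.1 ± 4.28 and Grin2a at 20.9 ± 3.76 FPKM, and neighbours in this order differed by less than 1 SD, except Grin1 and Gria3.

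At the low end, Grm8, a presynaptic receptor of the group that lowers transmitter release, had 0.772 ± 0.232 FPKM. Grik1 had 1.71 ± 0.233, Grin2d 1.79 ± 0.363, Grm4 2.07 ± 0.827 and Grin3a 3.37 ± 0.757 FPKM. The remaining 16 members lay between 5.35 and 15.3 FPKM.

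**Figure D1:**
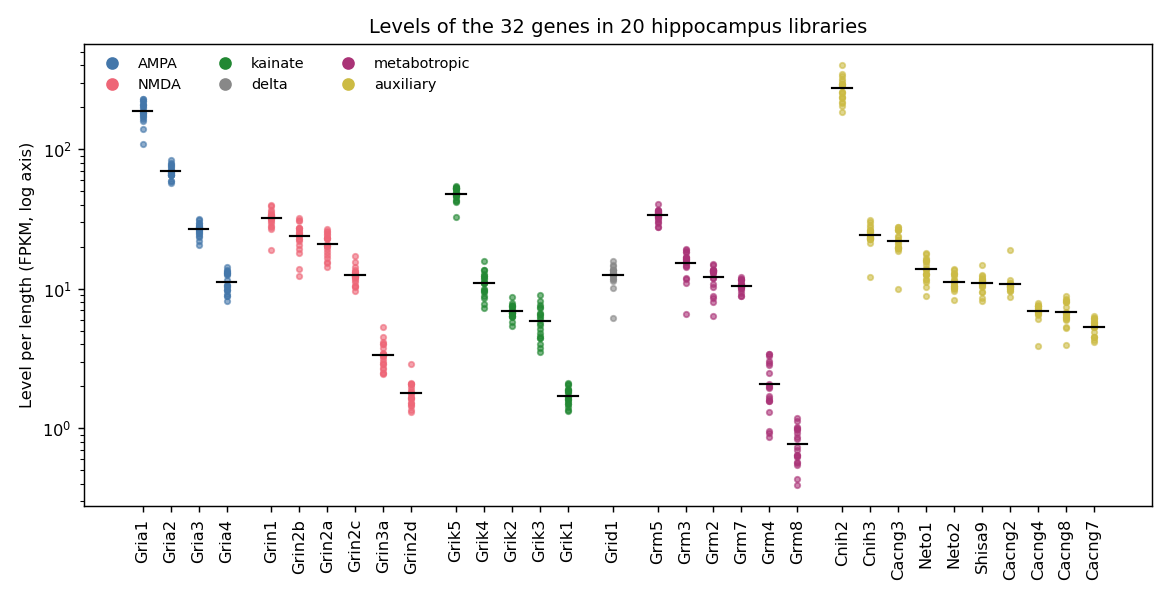
Level per exon length (FPKM, log axis) of the 32 genes, grouped and coloured by class. Points are the 20 libraries and black lines their means, which run from 0.772 for Grm8 to 273 for Cnih2.

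Per exon length, the make-up within the families was uneven. The shares depend on the merged exon length, which was 6043 bases for Gria1 and 15548 for Gria2, whose counts were nearly equal. Gria1 held 63.3% ± 3.59 of the summed AMPA subunit FPKM over the 20 libraries, Gria2 23.7% ± 2.99, Gria3 9.08% ± 0.654 and Gria4 3.87% ± 0.908. Among the GluN2 subunits, Grin2b held 40% ± 4.64, Grin2a 35.2% ± 2.66, Grin2c 21.7% ± 5.17 and Grin2d 3.12% ± 0.930. Grik5 held 65.3% ± 2.74 of the kainate sum, and Grm5, the receptor coupled to calcium release, held 45.4% ± 4.21 of the sum of the 6 metabotropic members.

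The comparison of 24mSC with 5mSC asked how the receptors differ with age under standard housing. None of the 32 members passed the test (edgeR quasi-likelihood, Benjamini-Hochberg adjusted p under 0.05 over all genes tested), against 0.803% of all genes. At an unadjusted p under 0.05 there were 10 members, 9 higher and 1 lower at 24 months, beside 20.5% of all genes (8.72% higher and 11.7% lower). By class, the log2 fold change was above 0 for 2 of 4 AMPA, 5 of 6 NMDA, 4 of 5 kainate, 6 of 6 metabotropic and 6 of 10 auxiliary members. The median over the 32 members was 0.14, with 24 of 32 above 0, and over all genes it was -0.01. Without 5mSC replicates 1 and 3, the members' median was 0.04, with 19 of 32 above 0. By class, 1 of 4 AMPA, 4 of 6 NMDA, 4 of 5 kainate, 4 of 6 metabotropic and 5 of 10 auxiliary members were then above 0. In that fit 6 members were higher and 3 lower at an unadjusted p under 0.05, beside 9.82% and 10.1% of all genes.

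Grik3, a kainate receptor subunit (ENSMUSG00000001985, GRCm38 chromosome 4, 125490700 to 125714173), came nearest to the threshold. It stood at 31.6, 59.4, 33.9, 39.6 and 46 CPM (counts per M counts, with libraries scaled by TMM) in 5mSC and at 73.4, 54.6, 65.1, 66.8 and 80.5 CPM in 24mSC. All old libraries but 1 lay above every young one, and the exception overlapped with the high 5mSC replicate 2. The log2 fold change was 0.69 ± 0.177 (SE; adjusted p = 0.0577), and it was 0.50 ± 0.183 (adjusted p = 0.133) without 5mSC replicates 1 and 3. Leaving out the high 5mSC replicate 2 alone gave 0.84 (adjusted p = 0.011), and with the neocortex markers described below as a term the value was 0.54 (adjusted p = 0.202).

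Gria4, the AMPA subunit best known from interneurons (ENSMUSG00000025892, chromosome 9, 4417896 to 4796234), showed a like arrangement. Its 5mSC libraries had 58.2, 86, 51.6, 65.2 and 56 CPM, and its 24mSC libraries 79.7, 83.9, 91, 80.6 and 82.7 CPM. Only 5mSC replicate 2 reached the old range. Old exceeded young by a log2 fold change of 0.40 ± 0.118 (adjusted p = 0.0848), 0.28 ± 0.121 (adjusted p = 0.208) without replicates 1 and 3, and 0.53 (adjusted p = 0.00944) without replicate 2. Interneuron markers stood at a mean log2 CPM of 5.06 to 6.05 in 5mSC and 5.99 to 6.08 in 24mSC, and 8 of the 9 had a positive fold change, none passing. Their part in the Gria4 difference was not tested, and in whole tissue, fewer cells of a type and less RNA per cell cannot be told apart.

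Grin3a encodes the GluN3A subunit, which lowers calcium entry through NMDA receptors (ENSMUSG00000039579, chromosome 4, 49661611 to 49845744). It measured 35.4, 49.4, 33.3, 40.6 and 30.0 CPM in 5mSC and 49.2, 41.8, 51.3, 40.7 and 55.6 CPM in 24mSC, and the groups overlapped. The log2 fold change was 0.34 ± 0.153 (adjusted p = 0.218), and 0.26 ± 0.176 (adjusted p = 0.417) without 5mSC replicates 1 and 3.

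Cnih3, a cornichon that slows the closing of AMPA receptors (ENSMUSG00000026514, chromosome 1, 181352628 to 181460641), measured 63.9, 62.3, 33.3, 58.3 and 62.2 CPM in 5mSC. The old libraries had 72.5, 63.2, 85.3, 64.1 and 83.3 CPM. The young group was tight except for replicate 3, and its highest library lay within the old range. The estimated log2 fold change was 0.39 ± 0.130 (adjusted p = 0.115) and 0.27 ± 0.095 (adjusted p = 0.118) without replicates 1 and 3.

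Grid1, a delta receptor that binds secreted synaptic organisers (ENSMUSG00000041078, chromosome 14, 34820108 to 35583379), measured 67.3, 75, 37, 81.1 and 60.3 CPM in 5mSC. In 24mSC it had 88.9, 70.3, 76.6, 81 and 93.9 CPM, with overlap between the groups. It gave a log2 fold change of 0.35 ± 0.135 (adjusted p = 0.16), and leaving out 5mSC replicates 1 and 3 gave 0.18 ± 0.094 (adjusted p = 0.283).

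Grm7, a presynaptic receptor that restrains release (ENSMUSG00000056755, chromosome 6, 110645581 to 111567230), measured 52.3, 61, 54.7, 61.2 and 52.4 CPM in 5mSC and 64.9, 57.7, 61.5, 60.5 and 71.6 CPM in 24mSC. The ranges overlapped, at a log2 fold change of 0.17 ± 0.065 (adjusted p = 0.16). It was 0.12 ± 0.065 (adjusted p = 0.32) without 5mSC replicates 1 and 3.

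The single member below 0 at an unadjusted p under 0.05 was Cnih2, the cornichon of principal neurons, named here after its values were seen. It had 254 to 549 CPM in 5mSC and 280 to 354 CPM in 24mSC, a log2 fold change of -0.38 ± 0.153 (adjusted p = 0.17). Its lowest and highest libraries of all 20 were 5mSC replicates 3 and 1, so the young group spanned the whole old range. Without both, the value was -0.41 ± 0.119 (adjusted p = 0.0717), and without replicate 3 alone it passed (adjusted p = 0.0244).

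**Figure D2:**
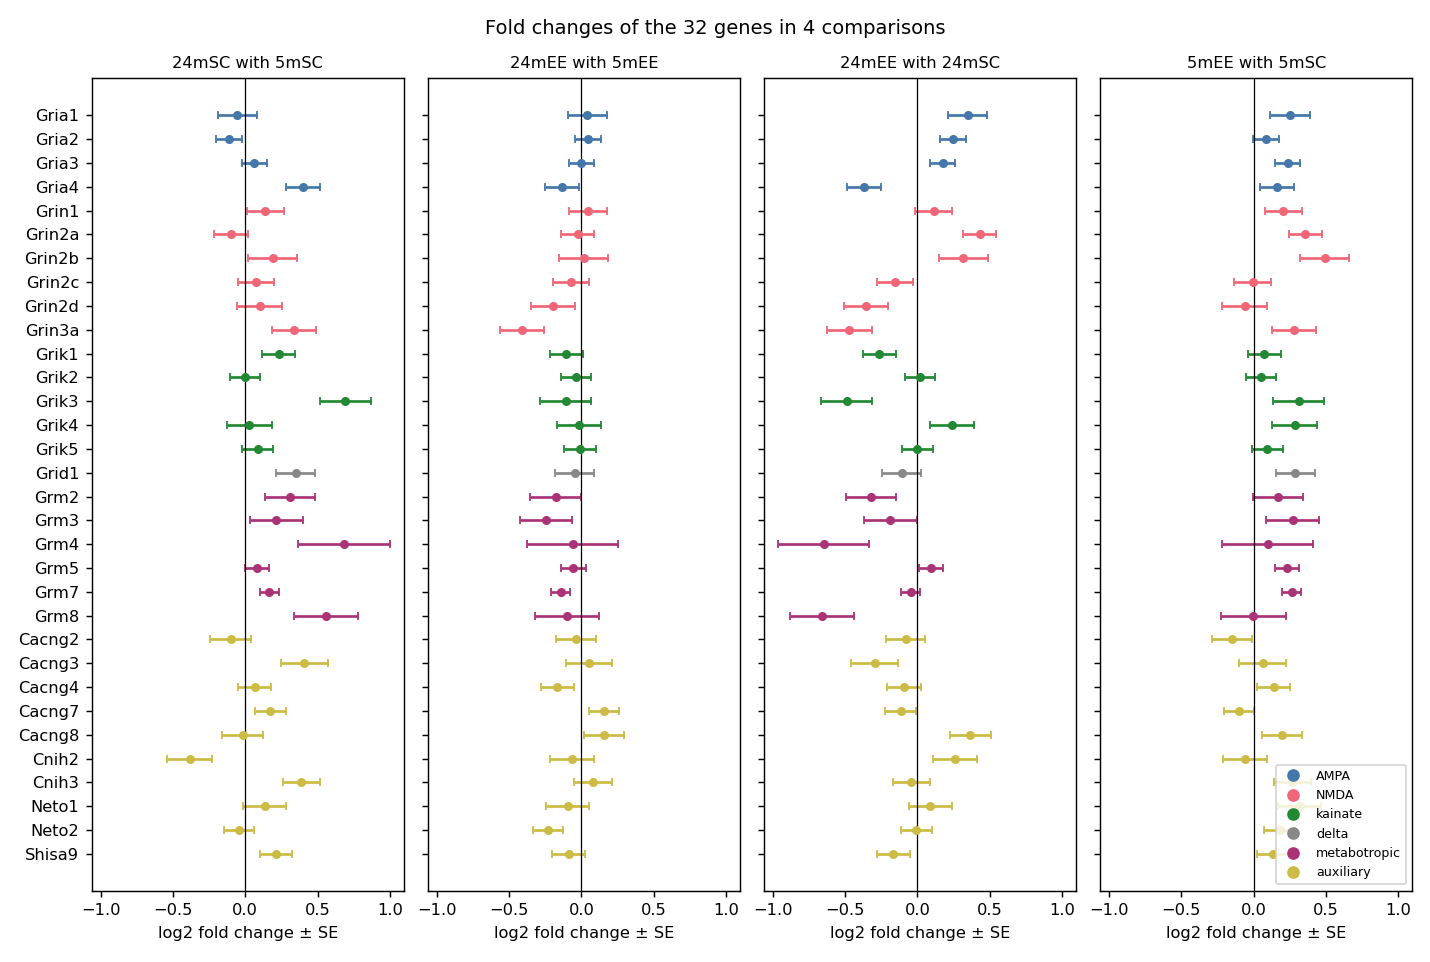
Log2 fold change with its standard error (edgeR, all 20 libraries) of the 32 genes in 4 comparisons, coloured by class. In 24mSC with 5mSC 24 of 32 points lie above 0, in 24mEE with 5mEE 8, in 24mEE with 24mSC 12 and in 5mEE with 5mSC 26, and none of the points passed at an adjusted p under 0.05.

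The comparison of 24mEE with 24mSC asked what enrichment did in old mice. In the fit of all 20 libraries none of the 32 members passed, as for all genes (0%). At an unadjusted p under 0.05 there were 10 members beside 6.21% of all genes. The 4 higher members were Gria1, Gria2, Grin2a and Cacng8, and the 6 lower ones Gria4, Grin2d, Grin3a, Grik1, Grik3 and Grm8. Thus the 3 abundant AMPA subunits had values above 0 and Gria4 a value below 0, and among the metabotropic receptors 5 of 6 had a value below 0. The median over the members was -0.07, with 12 of 32 above 0, and over all genes it was -0.00.

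Fitted on the 10 libraries of these 2 groups alone, 3 members passed. Grin2a was the only member higher, beside 0.38% of all genes, and Gria4 and Grin3a were lower, beside 0.785% of all genes. In that fit 16 members had an unadjusted p under 0.05, beside 14.7% of all genes. The same 3 members were those whose ranges did not overlap between the groups, where 3.43% of all genes were separated in this way. Without 5mSC replicates 1 and 3, which belong to neither group but enter the shared estimate of spread, Grin2a passed (adjusted p = 0.0453), beside 0.0236% of all genes called higher, and 16 members had an unadjusted p under 0.05, beside 13.8% of all genes.

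Grin2a encodes GluN2A, the subunit that gives NMDA receptors fast kinetics (ENSMUSG00000059003, chromosome 16, 9567898 to 9995560). It stood at 343, 297, 281, 331 and 311 CPM in 24mSC and at 434, 361, 467, 405 and 439 CPM in 24mEE. Every enriched library lay above every standard one, with 24mEE replicate 2 closest. The log2 fold change was 0.43 ± 0.116 (adjusted p = 0.332), or 0.43 ± 0.074 (adjusted p = 0.0251) in the fit of the 2 groups. Of its 50-base words, 11.6% occur in other genes, so some of its reads may be shared.

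Gria4 had the 24mSC values given above and 61.5, 73.1, 67.3, 55.7 and 66 CPM in 24mEE. All enriched libraries were below all standard ones, at a log2 fold change of -0.37 ± 0.118 (adjusted p = 0.463). In the fit of the 2 groups it was -0.37 ± 0.067 (adjusted p = 0.028). The enriched mean was 64.7 ± 6.53 CPM and that of 5mSC 63.4 ± 13.6 CPM. The 5mSC libraries ran from 51.6 CPM in replicate 3 to 86 CPM in replicate 2, and these groups were not tested against each other. Interneuron markers stood at a mean log2 CPM of 5.81 to 6.02 in 24mEE, partly below the 24mSC range, and 2 of the 9 had a positive fold change. The share of Gria4 in the AMPA subunit FPKM was 4.36 to 5.64% in 24mSC and 2.9 to 4.24% in 24mEE.

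Grin3a stood at 35.5, 37, 30.5, 30.8 and 38.5 CPM in 24mEE, all below the 24mSC values listed above. Its log2 fold change was -0.47 ± 0.153 (adjusted p = 0.464), and -0.47 ± 0.094 (adjusted p = 0.0354) in the fit of the 2 groups.

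Cacng8, the TARP gamma-8 that is enriched in the hippocampus (ENSMUSG00000053395, chromosome 7, 3390683 to 3415648), measured 14.4, 12.2, 14, 15.7 and 15.3 CPM in 24mSC. The enriched libraries had 18.9, 14.2, 18.8, 19.8 and 20.8 CPM. Apart from 24mEE replicate 2 they lay above all standard libraries, and the log2 fold change was 0.37 ± 0.141 (adjusted p = 0.606; 0.0905 in the fit of the 2 groups).

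Grm8 (ENSMUSG00000024211, chromosome 6, 27275119 to 28135178) measured 9.74, 8.52, 11.3, 9.72 and 11.7 CPM in 24mSC and 3.88, 10.1, 6.43, 5.63 and 6.32 CPM in 24mEE. Of the enriched libraries, replicate 2 fell within the standard range and the other 4 fell below it. The log2 fold change of -0.66 ± 0.222 (adjusted p = 0.495) had the largest size among the members, and Grm4, a receptor of the same group, had -0.65 at 12.4 to 20.3 CPM in 24mSC against 5.72 to 16.9 CPM in 24mEE.

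Grik3 had 36, 59.8, 49.5, 41.2 and 55.9 CPM in 24mEE, of which 2 libraries reached into the 24mSC range. Its log2 fold change was -0.49 ± 0.175 (adjusted p = 0.552). Grid1 differed little, with 80.8, 71.9, 77.2, 69.7 and 81.4 CPM in 24mEE, where 1 library lay just below the 24mSC range, at -0.11 ± 0.135 (adjusted p = 0.999). For Grm7 and Cnih3, the enriched old libraries had 59.2 to 62.9 and 63.9 to 79.2 CPM, inside the range of 24mSC.

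**Figure D3:**
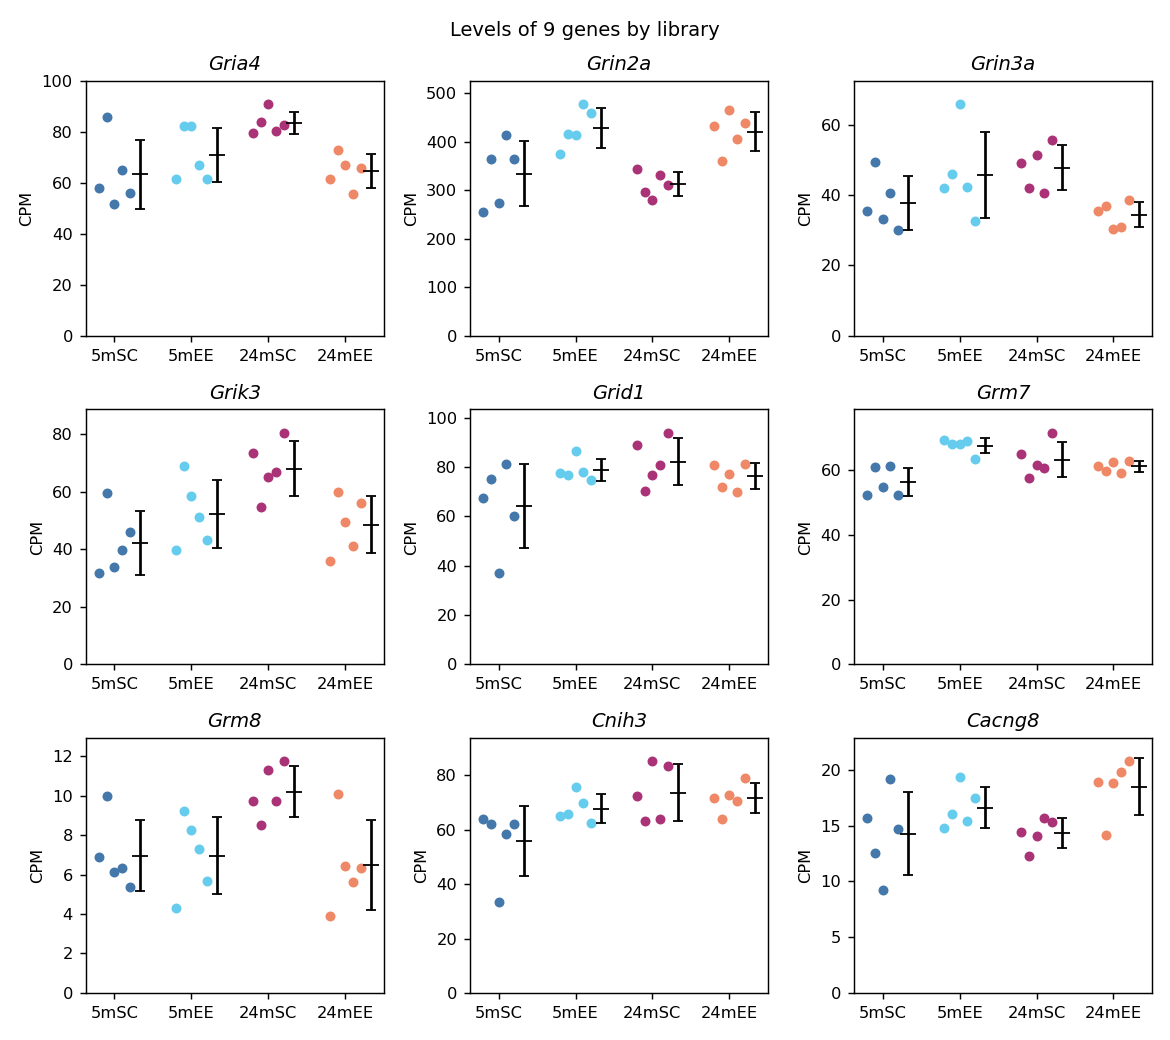
CPM by library for 9 members in the 4 groups, where points are libraries in replicate order, and the dash and bar give mean and SD (n = 5). For Grin2a the 24mEE points (361 to 467) lie above all 24mSC points (281 to 343), and for Gria4 and Grin3a they lie below them.

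Markers of tissue next to the hippocampus moved with this comparison. Of 7 neocortex markers, 7 had a negative fold change in 24mEE against 24mSC, none passing. Their summed level was 206 to 257 CPM in 24mSC and 150 to 231 CPM in 24mEE, and none was at 0 in any library. The mean log2 CPM of the list was 4.14 to 4.61 in 24mSC and 3.79 to 4.47 in 24mEE, where replicate 2 held the highest value. That library also had the highest Grm8, Grm4, Grik3 and Gria4 and the lowest Grin2a, Cacng8 and Gria1 of its group.

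With this mean, the neocortex score, as a term in the model, the log2 fold change between 24mEE and 24mSC was -0.33 for Grm8, -0.25 for Grik3, -0.18 for Gria4 and 0.16 for Cacng8. It was 0.38 for Grin2a (0.43 without the term) and -0.40 for Grin3a (-0.47 without the term). Of 12 markers of dentate granule cells, 12 had a positive fold change, with a summed level of 483 to 897 CPM in 24mSC and 811 to 1008 CPM in 24mEE. With that score as a term, the value was -0.23 for Gria4, -0.34 for Grin3a and 0.38 for Grin2a. Both scores differed between the groups compared, at means of 4.34 in 24mSC and 3.95 in 24mEE for neocortex and 5.29 and 5.66 for dentate markers. Housing and tissue make-up therefore cannot be told apart in these values, and the part of either was not tested. All 7 ventral hippocampus markers had a negative fold change, at 87.6 to 195 CPM summed in 24mSC and 75.8 to 98.6 CPM in 24mEE, while general neuron markers stood at a mean log2 CPM of 9.19 to 9.27 and 9.14 to 9.24. The ventral mean log2 CPM was 3.11 to 4.26 in 24mSC and 2.89 to 3.24 in 24mEE. It was not fitted as a term. In 24mSC, 24mEE and 5mEE the library with the highest ventral mean also had the highest Grin3a of its group. In 5mSC, replicate 3 had the highest ventral mean and replicate 2 the highest Grin3a. The part of ventral tissue in the Grin3a values was not tested.

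**Figure D4:**
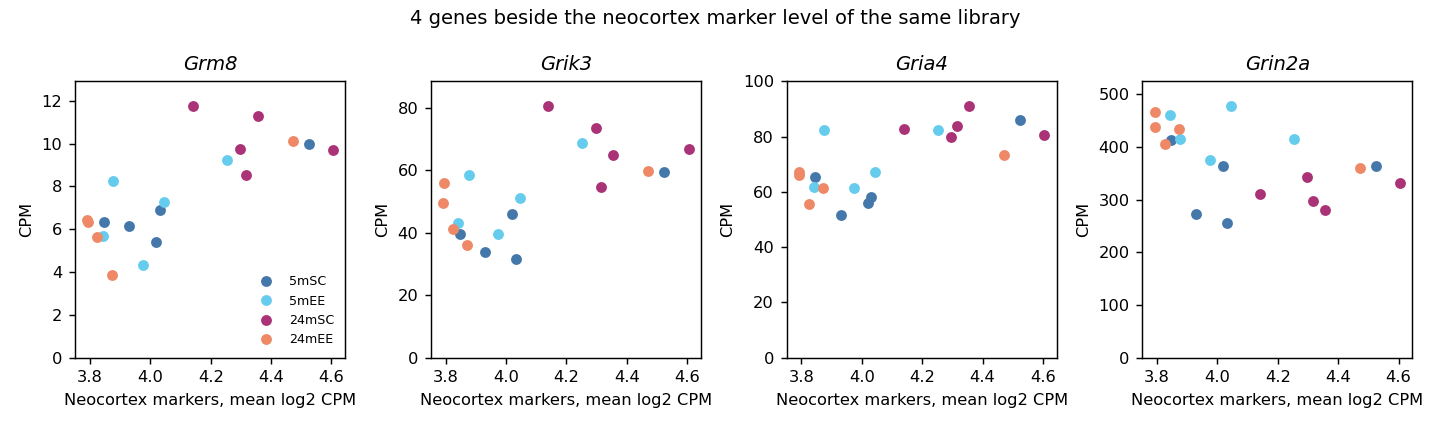
CPM of 4 members against the mean log2 CPM of 7 neocortex markers in the same library, coloured by group (20 libraries). The 24mSC libraries lie at 4.14 to 4.61 on the horizontal axis, and the 24mEE library at 4.47 has the highest Grm8 (10.1 CPM) and lowest Grin2a (361 CPM) of its group.

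In young mice, 5mEE with 5mSC, no member passed, as for all genes (0%). At an unadjusted p under 0.05 there were 7 members, all of them higher, beside 6.52% of all genes higher and 10% lower. Without 5mSC replicates 1 and 3 there were 2, 1 higher and 1 lower, beside 2.28% of all genes higher and 4.44% lower. The median over the members was 0.17, with 26 of 32 above 0, and 0.09, with 26 of 32, without 5mSC replicates 1 and 3.

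Grm7 was the only member whose ranges did not overlap, beside 1.62% of all genes. The 5mEE libraries had 69.3, 68, 68, 69 and 63.5 CPM, all above the 52.3 to 61.2 CPM of 5mSC. Enriched exceeded standard by a log2 fold change of 0.26 ± 0.065 (adjusted p = 0.223), which without 5mSC replicates 1 and 3 became 0.21 ± 0.065 (adjusted p = 0.515).

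Grin2a had 375, 415, 415, 478 and 460 CPM in 5mEE against 256, 365, 274, 413 and 365 CPM in 5mSC. The 2 lowest young libraries were replicates 1 and 3, and the other 3 overlapped with or lay just below the enriched ones. The log2 fold change was 0.36 ± 0.116 (adjusted p = 0.223) and 0.17 ± 0.089 (adjusted p = 0.754) without them. Averaged over both ages, the enrichment value of Grin2a was 0.39 ± 0.082 (adjusted p = 0.236), and 0.30 ± 0.059 (adjusted p = 0.226) without these libraries. For Grin2b, named after its values were seen, the value in young mice was 0.49 ± 0.169, and 0.21 ± 0.130 without these libraries.

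The other named members gave overlapping ranges in the young groups. The 5mEE libraries held 61.5 to 82.3 CPM of Gria4, 32.7 to 65.8 of Grin3a, 39.6 to 68.9 of Grik3 and 74.9 to 86.5 of Grid1. They held 4.32 to 9.22 CPM of Grm8, 62.6 to 75.9 of Cnih3 and 14.8 to 19.3 of Cacng8. Grm8, Grik3 and Gria4 were high in replicate 2 of 5mSC and of 5mEE, and each of these libraries had the highest neocortex score of its group, at 4.52 and 4.25. In 24mSC this did not hold, since replicate 4, with the highest score of 4.61, had the second lowest Gria4 and Grm8 and the middle value of Grik3.

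Between the old and young enriched groups, 24mEE with 5mEE, no member passed, beside 0.108% of all genes. At an unadjusted p under 0.05 there were 3 members, all lower, beside 1.9% of all genes lower and 2.71% higher. These were Grin3a at -0.41 ± 0.153, Grm7 at -0.14 ± 0.065 and Neto2, an auxiliary subunit of kainate receptors, at -0.23 ± 0.105. Ranges did not overlap for Grm7 and Cacng4, beside 2.76% of all genes, whereas in the standard cages no member was separated between the ages, beside 3.24% of all genes. All 6 metabotropic and all 5 kainate members had a value below 0, and 24 of 32 members in all.

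The age comparisons in the 2 housings share no library, and so do the enrichment comparisons at the 2 ages. The age values of 22 of 32 members had opposite signs in standard and enriched housing, beside 45.5% of all genes, and 19 of the 22 were above 0 in standard cages and below 0 under enrichment. Without 5mSC replicates 1 and 3 it was 20 of 32, beside 39.7% of all genes. The enrichment values had opposite signs at 5 and 24 months for 16 of 32 members, 15 of them above 0 in young and below 0 in old mice, beside 45.1% of all genes. Without these 2 libraries it was 15 of 32, beside 47.7% of all genes.

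The difference itself, tested as the interaction of age and environment, passed for no member, as for all genes (0%). At an unadjusted p under 0.05 there were 6 members, all below 0, beside 3.61% of all genes below 0 and 4.4% above. These were Grik3 at -0.80 ± 0.248, Grin3a at -0.75 ± 0.216, Grm8 at -0.66 ± 0.315, Gria4 at -0.53 ± 0.167, Grik1 at -0.34 ± 0.162 and Grm7 at -0.31 ± 0.091 (adjusted p from 0.613 to 0.622). Leaving out 5mSC replicates 1 and 3, the same members had -0.61 (Grik3), -0.67 (Grin3a), -0.62 (Grm8), -0.41 (Gria4), -0.36 (Grik1) and -0.26 (Grm7), with adjusted p from 0.421 to 0.594. The members' median was -0.21, with 6 of 32 above 0, and -0.13, with 9 of 32, without 5mSC replicates 1 and 3.

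Averaged over housing, no member passed for age, beside 1.19% of all genes, and 3 members (Grik3, Cnih3 and the TARP Cacng7) had an unadjusted p under 0.05, beside 14.9% of all genes. Without 5mSC replicates 1 and 3, Neto2 passed at -0.21 (adjusted p = 0.0409), beside 2.61% of all genes called lower. Its levels were 59 to 71.1 CPM in 24mSC, 61.9 to 69 in 24mEE, 64.2 to 85.5 in 5mEE and 51.3 to 84.2 in 5mSC, where replicate 3 was lowest. Averaged over age, no member passed for enrichment, as for all genes (0%), and 10 members had an unadjusted p under 0.05, beside 12.8% of all genes. Of these members, 9 were higher, beside 5.71% of all genes, and 1, Grm8, was lower, beside 7.11%.

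Other methods called more members. Limma-voom with quality weights, which gives less weight to libraries that stand apart, called 7 members between 24mEE and 24mSC. Gria1, Gria2 and Grin2a were higher, beside 0.629% of all genes, and Gria4, Grin2d, Grik3 and Grm8 were lower, beside 1.64% of all genes. The DESeq2 Wald test called Gria4 and Grik3 higher in 24mSC than 5mSC, beside 2.17% of genes. It called Grm7 higher in 5mEE than 5mSC, beside 0.0609%, and Gria3, Grin2a and Grin2b higher for enrichment averaged over age among the 11 members it gave an adjusted p, beside 1.85% of genes.

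Ratios between subunits do not depend on library size. The ratio of Grin2a to Grin2b counts was 0.74, 0.645, 0.888, 0.632 and 0.718 in 5mSC and 0.567, 0.669, 0.589, 0.589 and 0.493 in 24mSC. The difference in mean log2 ratio was -0.31 (exact permutation test, two-sided, p = 0.0238, adjusted p = 0.286 over 12 tests), and without 5mSC replicates 1 and 3 it was -0.20 (exact permutation test, adjusted p = 0.533). In 24mEE the ratio was 0.645, 0.661, 0.616, 0.664 and 0.55, a log2 difference from 24mSC of 0.11 (exact permutation p = 0.214).

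Gria1 and Gria2 had nearly equal counts, although Gria1 was higher per length. The count ratio ran from 1.02 to 1.23 in 5mSC apart from replicate 3 at 0.55, from 1.04 to 1.17 in 5mEE, from 0.922 to 1.1 in 24mSC and from 1.01 to 1.15 in 24mEE. The log2 difference between 24mEE and 24mSC was 0.10 (exact permutation p = 0.103, adjusted p = 0.444). Cacng8 gave 5.84 to 6.66 counts per 1000 counts of the 4 Gria genes in 24mSC and 5.95 to 7.65 in 24mEE, a log2 difference of 0.10 (exact permutation p = 0.175, adjusted p = 0.444). None of the 12 tests passed after adjustment, and 5 against 5 libraries allow no p below 0.00794. A single ratio difference at that least p would not pass adjustment over 12 tests. The tests therefore could not decide whether 1 ratio alone differed.

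By share of the GluN2 FPKM, Grin2a held 30.3 to 33.3% in 24mSC and 35.2 to 38.3% in 24mEE, with no overlap. Grin2c, a subunit found largely outside principal neurons, held 21.7 to 28.2% and 15.05 to 24.2%. Cacng8 held 9.34 to 12.3% and 11 to 17.2% of the summed FPKM of Cacng2, Cacng3, Cacng4, Cacng7 and Cacng8. The TARP Cacng5 is not a member and was left out of that sum, at 11.8 ± 2.66 CPM in 24mSC and 14 ± 2.22 in 24mEE. Grik3 held 8.94 to 11.2% and 5.08 to 9.94% of the kainate sum. These shares were computed as a description and were not tested.

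**Figure D5:**
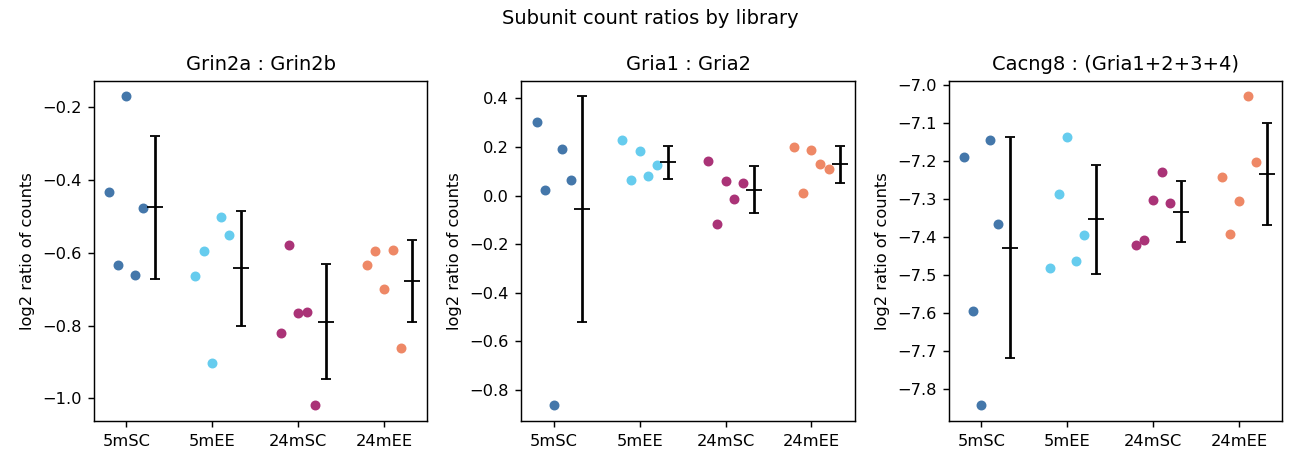
Log2 ratio of counts by library for Grin2a to Grin2b, Gria1 to Gria2 and Cacng8 to the sum of Gria1 to Gria4. Points are libraries, and the dash and bar give mean and SD (n = 5). The 5mSC point at -0.86 in the middle panel is replicate 3, and no comparison passed after adjustment over 12 tests.

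The genes around the receptors were described by 3 further lists. Of 22 genes for anchoring, trafficking and editing of the receptors, 1 passed between 24mSC and 5mSC, where 0.803% of all genes passed. This was Homer1, a scaffold that ties group I metabotropic receptors to the postsynaptic density, which fell from 249 ± 48.4 to 152 ± 18 CPM (log2 fold change -0.71 ± 0.121, adjusted p = 0.0086; -0.89 ± 0.105 without 5mSC replicates 1 and 3), with 205 ± 29.7 in 5mEE and 181 ± 11.3 in 24mEE. Its receptor partner Grm5 stood at 315 ± 35.3 CPM in 5mSC and 334 ± 23.8 in 24mSC. Nptx2, a secreted pentraxin that clusters AMPA receptors, had 41.1 ± 13.1 and 26.1 ± 5.24 CPM (-0.67, adjusted p = 0.0722; -0.78, adjusted p = 0.0093 without 5mSC replicates 1 and 3), and 39.3 ± 5.29 CPM in 24mEE. Nptx2 passed between 24mEE and 24mSC in the fit of the 2 groups (0.59, adjusted p = 0.0403), beside the 0.38% of all genes called higher there.

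Of 18 further receptor and auxiliary genes that were tested (22 listed), 0 passed in either main comparison, with medians of 0.01 for age and 0.09 for enrichment in old mice. Gsg1l, an auxiliary subunit that dampens AMPA receptors, had 29.7 ± 13.4 CPM in 5mSC, 53.7 ± 4.86 in 24mSC and 38.1 ± 4.5 in 24mEE (age 0.84, adjusted p = 0.0543; 0.59 without 5mSC replicates 1 and 3). Olfm2, a secreted protein found in AMPA receptor complexes, had 28.3 ± 12.5, 46 ± 5.42 and 24.4 ± 8.22 CPM, with a log2 fold change under enrichment in old mice of -0.92 (adjusted p = 0.31). In the fit of the 2 groups, Gsg1l (-0.49) and Olfm2 (-0.91) passed as lower, where 0.785% of all genes did, and Syndig1 (0.37) and Frrs1l (0.23) as higher, where 0.38% did. Of 17 genes for glutamate transport and metabolism, 0 passed. The smallest p values for age were those of the glutamine carrier Slc38a1 (0.37, adjusted p = 0.122) and the glial transporter Slc1a2 (0.32, adjusted p = 0.199). Slc38a1 had 0.16 and Slc1a2 0.07 without 5mSC replicates 1 and 3.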

How the data were processed

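Hippocampal RNA of 20 male mice (5 per group) was sequenced by the authors as 50-nucleotide single-end reads with a kit that does not mark strand. The deposited counts are whole reads per Ensembl gene, and the labels name STAR 2.4.1d, featureCounts 1.4.6-p4, bcl2fastq 1.8.2 and the GRCm38 build. The study's own results came from another alignment and count. Deposited RPKM values were not used here. Symbols were matched for 99.1% of identifiers through GENCODE.

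Counts were fitted in R 4.3.3 with edgeR 4.0.16 (filterByExpr with a least count of 10 and total of 15, TMM, quasi-likelihood), as 1 model of 4 groups with 7 contrasts and Benjamini-Hochberg adjustment over 16692 genes (threshold 0.05). CPM is on the TMM scale and FPKM is CPM per kilobase of exon. Subunit ratios were tested by exact permutation of libraries. Alternatives used DESeq2 1.42.0, limma 3.58.1, fewer libraries, no filter and marker scores (mean log2 CPM of a list) as covariates. The script was tested on simulated data. Replicate numbers follow deposition order and pair nothing. No 2 libraries had equal counts in more than 2.27% of genes. The level of 3 counts is 0.0882 to 0.329 CPM and covers counting error only.

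Members, lists and tests were chosen with earlier results of these data known. Values by library are given for members passing in any fit of the 2 main comparisons by all libraries, by 2 groups or by 18 libraries, and per class for the member with the smallest p in each. Of other lists, up to 4 passing genes, or the 2 with the smallest p, are named. Other members given with single values were chosen after their values were seen.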

Additional observations from a re-analysis of the deposited data

Results flagged for a closer look

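Values of the 9 members described by library and of the 3 ratios were examined in 48 groups of 5 libraries for a library far from the rest of its group. About 1 group in 20 is marked by chance, and 4 were marked. Cnih3 in 5mSC replicate 3 was lowest at 33.3 CPM, and the log2 ratio of Gria1 to Gria2 in the same library was lowest at -0.86. Grid1 in 5mEE replicate 3 was highest at 86.5 CPM. Grm7 in 5mEE replicate 5 was lowest at 63.5 CPM, still above all 5mSC libraries.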

How the results depend on the processing

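No member passed in any of the 7 comparisons of the fit of all libraries, and other fits gave other counts. Between 24mEE and 24mSC it was 1 without 5mSC replicates 1 and 3, 3 with only the 2 groups compared and 7 with limma-voom quality weights, and 0 with DESeq2 or either marker score as covariate. Between 24mSC and 5mSC it was 2 with DESeq2, and 0 to 4 when single libraries were left out (4 without 5mSC replicate 2, namely Gria4, Grik3, Grm4 and Cacng3, and 1, Cnih2, without replicate 3). DESeq2 gave 1 between 5mEE and 5mSC and 3 for enrichment averaged over age. For age averaged over housing the count was 1 without 5mSC replicates 1 and 3, 1 with quality weights, and 0 to 1 with single libraries left out. DESeq2 size factors and no filter called none. The 13 fold changes for which members are described by library kept their sign under every alternative run. Over all 63 pairs of these 9 members and the 7 comparisons, 14 turned sign under at least 1 alternative, and the largest of these was 0.17 in size in the fit of all libraries.

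The ratio differences near 0 changed sign. Without 5mSC replicates 1 and 3, Gria1 to Gria2 between 24mSC and 5mSC was -0.0685 in place of 0.08. With single libraries left out, it ran from -0.12 to 0.17. The same ratio ran from -0.00835 to 0.283 between 5mEE and 5mSC and from -0.0271 to 0.0204 between 24mEE and 5mEE. Cacng8 to the Gria sum ran from -0.00998 to 0.165 between 24mSC and 5mSC and from -0.0293 to 0.145 between 5mEE and 5mSC. Grin2a to Grin2b ran from -0.0988 to 0.0126 between 24mEE and 5mEE. No ratio passed under any alternative, and where libraries were left out the least possible p was larger still, so this decides nothing about a single ratio. The cause of these changes was not tested, other than that 5mSC replicate 3 held the lowest Gria1 to Gria2 ratio. No paired analysis was possible because replicate numbers are in accession order and link no animals. The labels give no sequencing run, so the run could not be fitted.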
